A study of Mus musculus with 4 samples.

Results

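NF-kB is a dimeric transcription factor that inhibitory proteins hold in the cytoplasm until a kinase complex, IKK, marks them for destruction. Several of its target genes encode proteins that switch it off again, so their mRNA levels are widely read as a sign of recent pathway activity. The classical inhibitors are the IκB proteins, and the protein A20 cuts the signal upstream by removing ubiquitin chains. The 10 genes followed here are 7 inhibitors or nuclear modulators (Nfkbia, Nfkbib, Nfkbie, Nfkbiz, Tnfaip3, Tnip1 and Bcl3) and 3 genes of DNA-binding subunits or their precursors (Nfkb1, Nfkb2 and Relb). They were chosen from a list of genes drawn up with earlier results of these arrays known, in which Nfkbia and Tnfaip3 had already stood out as lower with A-FABP. Their differences are therefore given as a description. Each gene was read at the probe set that the platform annotation assigns to it alone, and 9 of the 10 had such a probe set, 1 each, among 22180 genes in all. Nfkb1 was not analysed here, because the annotation used gave it no probe set, which leaves 7 inhibitors and 2 subunits.

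The arrays measured RNA from EO771, a mouse mammary carcinoma cell line. A-FABP cultures (2 arrays) had received recombinant mouse A-FABP, the adipocyte fatty acid binding protein, at 100 ng/ml. Control cultures (2 arrays) were given PBS according to the series design, although the free-text description attached to the control arrays also mentions A-FABP. All cultures had grown in RPMI medium for 24 hours to a confluence of 70% or more, and no source used here gives the duration of exposure. Titles name the arrays biological replicates of 1 cell line, and whether they were separate cultures grown on separate days is not stated, so the p-values measure the spread between these arrays.

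Values are log2 expression after RMA, and the 4 arrays had medians of 5.95 to 6.03. Replicate arrays correlated at 0.991 in both groups and arrays of different groups at 0.985 to 0.989. Vim, an intermediate filament gene of mesenchymal and transformed cells, was bright at 13.92 and 13.95 on the A-FABP arrays and 13.95 on both controls. The other mesenchymal markers were dim: with A-FABP against PBS, Fn1 averaged 5.35 against 5.20, Cdh2 5.55 against 5.71 and Col1a1 6.87 against 6.68. The epithelial markers were mostly dim too. The luminal keratin gene Krt8 lay at 8.76 and 8.85 on the A-FABP arrays and 8.83 and 8.74 on the controls, whereas Epcam, an epithelial surface marker, lay below the array medians at 4.45 and 4.85 on the A-FABP arrays and 4.79 and 5.05 on the controls. Fabp4, the gene of A-FABP, was bright in both groups, at 13.33 and 13.29 on the A-FABP arrays and 13.20 and 13.18 on the controls. The other adipocyte markers were dim: with A-FABP against PBS, Adipoq averaged 5.19 against 5.11, Plin1 6.32 against 6.26, Lep 5.06 against 4.99 and Cidec 5.02 against 5.25. The arrays measure RNA, not the A-FABP protein. Detection was not called on these values. In bulk RNA, fewer cells that express a gene and less RNA of it per cell cannot be told apart.

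The promoters of the 2 genes that differed most carried motifs for NF-kB itself, and they are shown first. Of the 9 measured genes, 7 had entries in the RefSeq promoter table (GRCm38.p6), with 10 start sites between them, and Nfkbiz and Relb had none. The 250 bases before each start site were searched on both strands for the kB consensus, a 10-letter motif, and for the plain 9-letter motif GGNNTTTCC, which overlaps many matches of the consensus. The consensus was found in 7 of the 10 windows, against 7.25% of the 32851 windows of the whole table. By gene it was found in 5 of the 7, against 8.23% of the 27025 genes of the whole table. The 9-letter motif was found in 5 of the 10 windows, against 4.93% of all windows. Below, capitals mark every match to either motif on either strand, and each sequence reads 5′ to 3′ along the gene and, where it reaches the start, ends at the base before it.

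The 2 genes with the largest differences are shown with the whole upstream window. Nfkbia lies on the minus strand, with its window at chr12:55492648-55492897, and has a 9-letter match at -178 to -170 and a match to both motifs at -29 to -20, counted from the start site. Tnfaip3 also lies on the minus strand. Its window at chr10:19015411-19015660 holds a consensus match at -125 to -116 and a pair of matches at -24 to -16 and -12 to -3. Its other annotated start site has none.
Nfkbia: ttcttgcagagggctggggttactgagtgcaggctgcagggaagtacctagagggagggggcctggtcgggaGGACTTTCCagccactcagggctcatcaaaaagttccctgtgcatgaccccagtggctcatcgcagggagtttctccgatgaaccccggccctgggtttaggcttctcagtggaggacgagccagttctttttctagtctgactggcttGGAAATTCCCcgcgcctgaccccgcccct
Tnfaip3: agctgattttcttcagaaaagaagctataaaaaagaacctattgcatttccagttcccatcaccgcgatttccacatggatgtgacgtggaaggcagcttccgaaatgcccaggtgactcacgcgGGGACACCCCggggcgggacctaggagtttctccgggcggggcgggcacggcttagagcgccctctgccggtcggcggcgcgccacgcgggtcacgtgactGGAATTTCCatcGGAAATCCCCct

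Shorter stretches that hold such motifs, with up to 12 bases on each side, are shown for members with smaller differences. They are Tnip1 (chr11:54962975-54963010, minus strand), Nfkbie (chr17:45555582-45555615, plus strand), the first of the start sites of Nfkb2 (chr19:46304686-46304736, plus strand), its most downstream start site (chr19:46305693-46305726, plus strand) and Bcl3 (chr7:19822839-19822871, minus strand).
Tnip1: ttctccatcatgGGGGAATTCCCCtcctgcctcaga
Nfkbie: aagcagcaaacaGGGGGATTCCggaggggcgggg
Nfkb2, first start: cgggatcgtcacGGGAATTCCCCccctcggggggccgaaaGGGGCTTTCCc
Nfkb2, most downstream start: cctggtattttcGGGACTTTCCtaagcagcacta
Bcl3: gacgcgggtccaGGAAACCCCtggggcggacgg

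Nfkbib was the only one of these 7 genes without a match to either motif in any window searched. A match says only that the letters are present in the window.

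**Figure D1:**
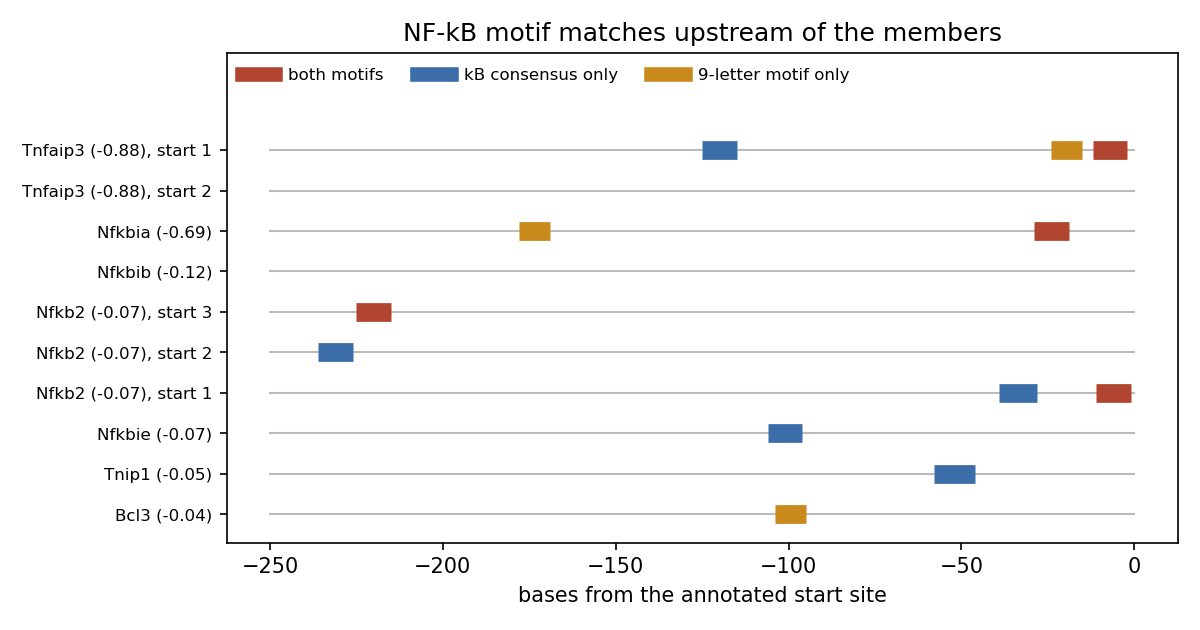
Each line is the 250 bases before 1 annotated start site (horizontal axis, bases from the start), with coloured blocks at motif matches and the log2 difference (A-FABP minus PBS control) of the gene in its label. Genes run from the lowest difference at the top (Tnfaip3, -0.88) to Bcl3 at -0.04, and matches occur at both ends of this order.

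Among the inhibitors, the lower levels with A-FABP were concentrated in 3 genes: Tnfaip3, Nfkbia and Nfkbiz. All 9 measured members had a difference below 0, from -0.88 to -0.04, but the other 6 differed by no more than 0.15 on the log2 scale. The median over all 22180 genes was also below 0, at -0.01. No member passed the limma test (adjusted p from 0.296 to 0.909, Benjamini-Hochberg over all probe sets), and none of the 41345 probe sets did, which is 0% called, although 6258 had an unadjusted p under 0.05. An exact two-sided permutation test on 2 arrays against 2 cannot give a p below 0.333.

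Tnfaip3 encodes A20, an enzyme that edits ubiquitin chains on signalling adaptors and so limits IKK activation. It lay at 8.97 and 8.65 with A-FABP, against 9.57 and 9.80 with PBS. The groups did not overlap, and the 0.60 between the nearest arrays of the groups exceeded the 0.32 between the A-FABP replicates and the 0.22 between the controls. The difference of -0.88 ± 0.16 (SE, n = 2 arrays per group; 95% CI -1.32 to -0.43) corresponds to 54.5% of the PBS level, or 1.84-fold lower. It ranked 13 of 22180 genes from the lowest.

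Nfkbia encodes IκBα, the classical cytoplasmic inhibitor, which NF-kB itself induces and which is resynthesised after each round of signalling. It lay at 11.76 and 11.62 with A-FABP, against 12.30 and 12.46 with PBS. The groups did not overlap, and the 0.54 between their nearest arrays was over the replicate gaps of 0.14 with A-FABP and 0.15 with PBS. The difference was -0.69 ± 0.11 (95% CI -0.99 to -0.39), or 62.1% of the PBS level, and it ranked 67 of 22180 from the lowest.

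Nfkbiz encodes IκBζ, an inducible nuclear IκB protein that can raise as well as restrain the transcription of particular NF-kB targets. It lay at 9.55 and 9.56 with A-FABP, against 9.88 and 9.91 with PBS. Replicates were close, 0.01 apart with A-FABP and 0.03 with PBS, and the groups were separated by 0.32. The difference was -0.34 ± 0.08 (95% CI -0.56 to -0.13), or 78.8% of the PBS level. The limma adjusted p was 0.296 for Nfkbiz, as for Nfkbia and Tnfaip3.

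The other classical IκB genes differed little. Nfkbib, which encodes IκBβ, lay at 9.76 and 9.89 with A-FABP, against 9.97 and 9.91 with PBS. The A-FABP arrays were the lower ones, but the groups were only 0.02 apart while the A-FABP replicates were 0.13 apart. Nfkbie, which encodes IκBε, lay at 7.15 and 7.23 with A-FABP, against 7.27 and 7.26 with PBS, again with the groups only 0.02 apart. The differences were -0.12 (95% CI -0.38 to 0.14) for Nfkbib and -0.07 (-0.30 to 0.16) for Nfkbie, so a difference the size of that of Nfkbia lies outside both intervals. Without A-FABP replicate 1 the differences were -0.05 for Nfkbib and -0.03 for Nfkbie, and without A-FABP replicate 2 they were -0.18 and -0.11.

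Tnip1 and Bcl3 overlapped between the groups. Tnip1 encodes ABIN-1, a ubiquitin-binding partner of A20, and lay at 8.89 and 8.91 with A-FABP, against 8.85 and 9.05 with PBS. Bcl3 encodes a nuclear IκB protein that acts with p50 and p52 dimers, and lay at 8.23 and 8.16 with A-FABP, against 8.39 and 8.08 with PBS. In both genes the controls spread more widely than the A-FABP arrays. The A-FABP arrays were 0.03 apart and the controls 0.20 for Tnip1, and 0.06 and 0.32 for Bcl3. The differences were -0.05 (95% CI -0.34 to 0.24) for Tnip1 and -0.04 (-0.43 to 0.35) for Bcl3. The interval of Tnip1 does not reach the -0.88 of its partner gene Tnfaip3, although a test between members was not made.

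**Figure D2:**
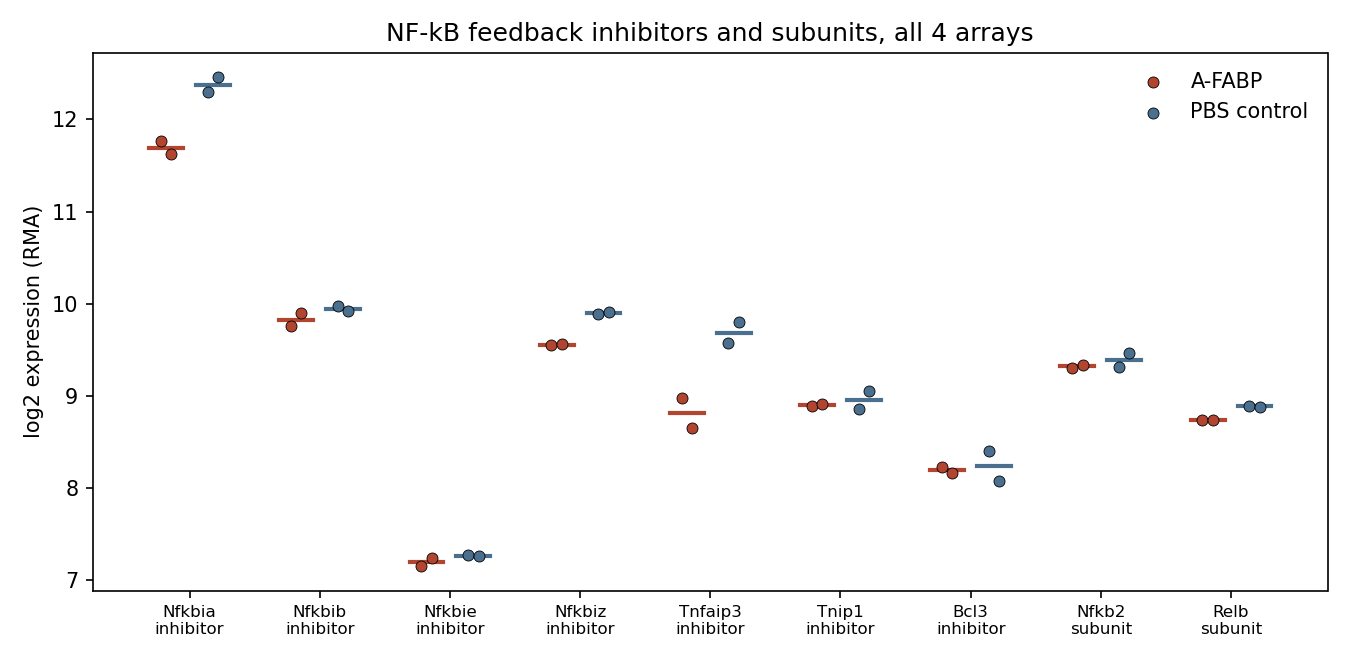
Log2 expression (vertical axis) of the 9 measured members on all 4 arrays, as points with a bar at each group mean, A-FABP left of PBS control within each gene. The A-FABP points of Nfkbia, Nfkbiz and Tnfaip3 stand clear below the controls, by 0.54, 0.32 and 0.60, whereas those of Tnip1, Bcl3 and Nfkb2 overlap the controls. Heights of different genes come from different probe sets and are not compared.

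The subunit genes showed small differences. Nfkb2 encodes the p100 precursor, which holds RelB inactive until the noncanonical pathway processes it to p52, and it is itself an NF-kB target. It lay at 9.30 and 9.34 with A-FABP, against 9.31 and 9.47 with PBS, and the groups overlapped. Its difference was -0.07 (95% CI -0.34 to 0.20). Relb, the gene of the RelB subunit that pairs with p52, lay at 8.73 and 8.74 with A-FABP, against 8.89 and 8.88 with PBS. Its replicates were within 0.01 of each other in both groups and the groups were 0.14 apart, so that the small difference was well beyond the replicate gaps. It amounted to -0.15 ± 0.08 (95% CI -0.36 to 0.07; limma adjusted p = 0.424). Relb was thus lower with no overlap, whereas Nfkb2 overlapped. A share of 27.5% of all genes was lower with no overlap too, and the interval of Relb includes 0. Little is therefore read from the separation of its arrays.

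Set side by side, the median difference was -0.12 over the 7 inhibitors and -0.11 over the 2 subunits, while the median over all 22180 genes was -0.01. The inhibitors ranged from -0.88 to -0.04 and the subunits from -0.15 to -0.07. Measured against each gene's PBS mean, the median inhibitor was at -0.18 and -0.07 on the A-FABP arrays and at -0.01 and 0.01 on the PBS arrays. The median subunit was at -0.12 and -0.10 on the A-FABP arrays and at -0.04 and 0.04 on the PBS arrays. With repeated quantile normalization the inhibitor median minus the subunit median was 0.0087, and as deposited it was -0.0071. A single array also moved it: without PBS control replicate 2 the medians were -0.20 for inhibitors and -0.07 for subunits, -0.13 apart, without A-FABP replicate 2 they were -0.06 apart, and without A-FABP replicate 1 the inhibitor median was higher by 0.02. Neither the sign nor the size of this contrast is settled by 4 arrays.

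The 2 A-FABP arrays were both lower than the 2 controls in 5 of 7 inhibitors and 1 of 2 subunits, where 27.5% of all genes had this order, and the opposite order, found in 26% of all genes, occurred in no member. At an unadjusted p under 0.05, 3 of the 9 members were lower, against 8.24% of all genes, and none was higher, against 4.81%. The members were chosen with these differences known, so nothing is read from these counts. After centring each array on its median, the order held in 3 of 7 inhibitors, where 18.4% of all genes had it.

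Differences on these arrays followed the level of a gene. Genes at mean levels below 5 and of 5 to 7 had median differences of -0.07 and -0.13. Those averaging above 9 had a median difference of 0.04, with a 5th to 95th percentile range of -0.11 to 0.22, and genes between 7 and 9 had a median of 0.09, with a range of -0.19 to 0.34. Tnfaip3, Nfkbia and Nfkbiz lie above 9 and were below that range, with 0.0441%, 0.0883% and 0.574% of genes at that level lower. Nfkbib was just below its lower edge, at -0.117 against -0.112, with 4.66% of genes lower. Nfkb2, also above 9, lay within the range, as did Relb, Nfkbie, Tnip1 and Bcl3 among genes between 7 and 9, where 6.74% (Relb) to 16.8% (Bcl3) were lower.

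**Figure D3:**
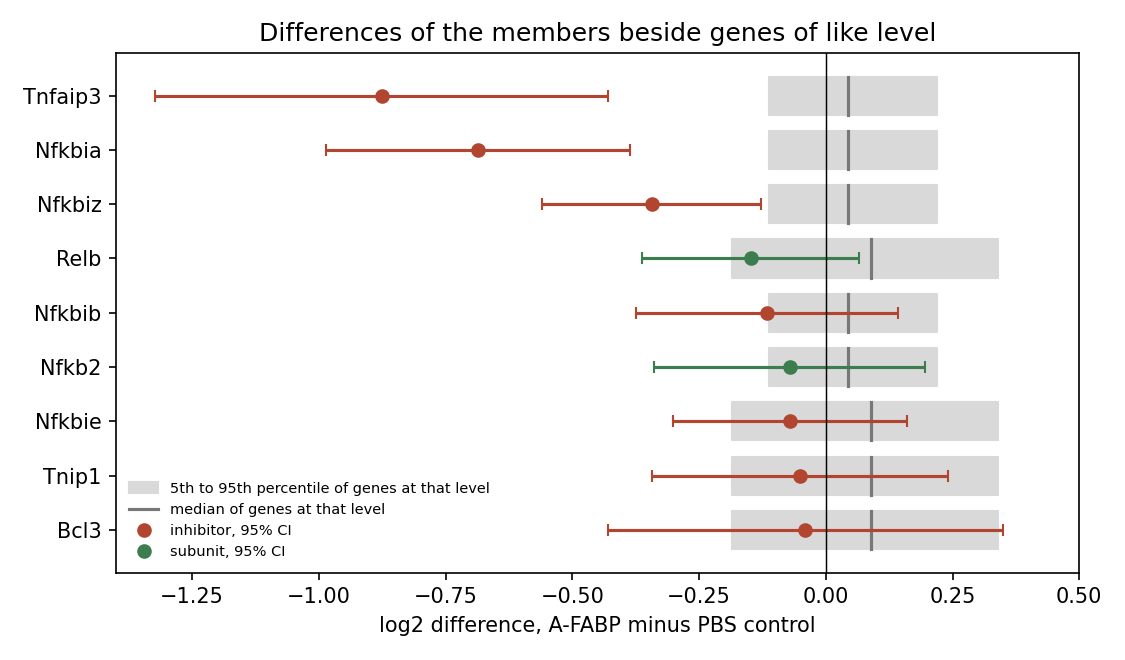
Log2 difference (horizontal axis, A-FABP minus PBS control) of each member with its 95% confidence interval from limma, over a grey band for the 5th to 95th percentile of all genes at the same level. Tnfaip3, Nfkbia and Nfkbiz lie well left of their bands, Nfkbib lies just left of the edge of its band, and the other 5 lie inside.

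The remaining subunits, Rela and Rel, were bright. Rela encodes p65, the main activating subunit, and lay at 11.93 and 12.02 with A-FABP, against 11.99 and 11.98 with PBS. Its groups overlapped and its difference was -0.01 (95% CI -0.24 to 0.22). Rel encodes c-Rel and lay at 10.01 and 9.97 with A-FABP, against 10.09 and 10.19 with PBS. The groups did not overlap, and the difference was -0.15 (95% CI -0.39 to 0.09).

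Further pathway genes came from lists that cover the route from receptor to target, 85 genes in all, of which 81 had a probe set. None of the 81 passed the limma test (adjusted p from 0.296 to 0.999). At an unadjusted p under 0.05, 9 were lower and 8 higher, where 8.24% and 4.81% of all genes were. Of 7 IKK and upstream kinase genes, 1 was lower and 3 were higher on both A-FABP arrays than on both controls. Of all genes, 27.5% and 26% had these orders, and the median of the 7 was 0.03. The kinase genes Map3k8 (-0.16), Map3k7, which encodes TAK1 (0.15), and Tbk1 (0.05) had the largest differences. Ikbkb, the gene of the catalytic subunit IKKβ, lay at 0.03 (95% CI -0.19 to 0.26).

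Of 11 receptor genes, 2 lay lower and 4 higher with no overlap, where 27.5% and 26% of all genes did. The 11 had a median of 0.00. Tnfrsf11a, which encodes the RANK receptor, lay at 5.40 and 5.32 with A-FABP, against 6.04 and 5.72 with PBS, a difference of -0.52 ± 0.14 at a dim probe set. Of the Toll-like receptor genes, Tlr4 and Tlr3 lay on the other side of 0 and Tlr2 at -0.06. Tlr4, the receptor gene for bacterial lipopolysaccharide, lay at 8.91 and 8.998 with A-FABP, against 8.66 and 8.53 with PBS, a difference of 0.36 ± 0.10. Tlr3, which encodes a receptor for double-stranded RNA, lay at 0.34 ± 0.12.

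Adaptors and ubiquitin ligases had a median of 0.09 over 17 genes, 9 of them higher and 2 lower with no overlap, where 26% and 27.5% of all genes were. The mean levels of the 17 ran from 7.02 to 10.28. All genes at levels of 7 to 9 had a median of 0.09, and those above 9 of 0.04. Tradd, the adaptor gene of TNF receptor 1, lay at 8.82 and 8.81 with A-FABP, against 8.49 and 8.35 with PBS, a difference of 0.40 ± 0.09. Birc3, which encodes the ubiquitin ligase cIAP2 and is itself an NF-kB target, lay at 0.25 ± 0.10, and the IL-1 receptor kinase gene Irak2 at -0.20 ± 0.13. Inhibitors of the pathway outside the 10 genes lay on both sides of 0, with 9 of 13 above and 4 below. Of these 13 genes, 7 lay higher and 2 lower with no overlap, where 26% and 27.5% of all genes did. Their median was 0.08. Their mean levels ran from 4.72 to 11.86, a span where the medians of all genes by level ran from -0.13 to 0.09. Sigirr, an inhibitory receptor gene, lay at 0.28 ± 0.13, Otulin, a deubiquitinase gene for linear chains, at 0.24 ± 0.12, and N4bp1, which encodes a suppressor of NF-kB signalling, at 0.24 ± 0.08. On the lower side, Nfkbid, a further gene of a nuclear IκB protein, lay at -0.20 ± 0.13 and Irak3, the gene of an inhibitory IL-1 receptor kinase, at -0.16 ± 0.10, both at dim probe sets. Their groups were only 0.0013 (Nfkbid) and 0.022 (Irak3) apart, less than the gaps between replicates.

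Target genes lay mostly on the lower side. Of 31, 24 lay lower and 4 higher with no overlap, where 27.5% and 26% of all genes did, with a median of -0.15. Some of the 24 were barely separated. The groups were 0.0034 apart for Mmp9, and 0.018 for Bcl2a1a, whose PBS replicates were 0.79 apart. These target genes had mean levels from 3.83 to 13.35, where the medians of all genes by level ran from -0.13 to 0.09. At an unadjusted p under 0.05, 8 of the 31 were lower and 3 higher, again beside 8.24% and 4.81% of all genes. Gadd45b, a stress gene that NF-kB induces, had the largest difference, at 10.18 and 9.75 with A-FABP, against 11.18 and 11.28 with PBS, or -1.27 ± 0.18. Like Tnfaip3 and Nfkbia it was lower on the second A-FABP array and higher on the second PBS array. Irf1, an interferon regulatory factor gene, lay at -0.55 ± 0.11 and Saa3, an acute phase gene, at -0.51 ± 0.23. The list was drawn up with earlier results for Gadd45b, Irf1 and Ptgs2 known, so nothing is read from these counts. The COX-2 gene Ptgs2, at 0.48, is among the higher genes of the list. So are Mmp13, at 0.39, and Il6, at 0.41 and a dim probe set.

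Markers of leukocytes lay on both sides. Of 8 macrophage and leukocyte markers measured, 5 lay below 0 and 3 above, with a median of -0.14. Their mean levels ran from 4.22 to 12.79. All genes at levels of 5 to 7 had a median of -0.13, and those above 9 of 0.04. The summed log2 level of the 8 markers was 52.09 and 51.71 on the A-FABP arrays, against 53.14 and 52.73 on the PBS arrays. The 7 mammary epithelial markers measured lay similarly, 5 below 0 and 2 above, with a median of -0.14. Their sum was 43.58 and 43.59 with A-FABP, against 44.15 and 44.67 with PBS. Mesenchymal, adipocyte and endothelial markers had medians of 0.06, 0.07 and -0.03. Ptprc, the pan-leukocyte marker gene, was dim at 3.997 and 3.996 on the A-FABP arrays, against 4.58 and 4.32 with PBS, while Cd68, a lysosomal gene of macrophages that other cells also use, was bright at 12.70 and 12.80 with A-FABP, against 12.82 and 12.84 with PBS. Itgam, at -0.34 ± 0.08, and Cd3e, at -0.43 ± 0.18, were lower with no overlap, both at dim probe sets. Cd14, at 0.28 ± 0.13, and Csf1r, at 0.16 ± 0.09, lay on the higher side. Of the 8 markers, 4 lay lower and 2 higher with no overlap, where 27.5% and 26% of all genes did. At an unadjusted p under 0.05, 2 were lower and none higher, beside 8.24% and 4.81% of all genes. The part of these markers in the differences of Tnfaip3 and Nfkbia was not tested.

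**Figure D4:**
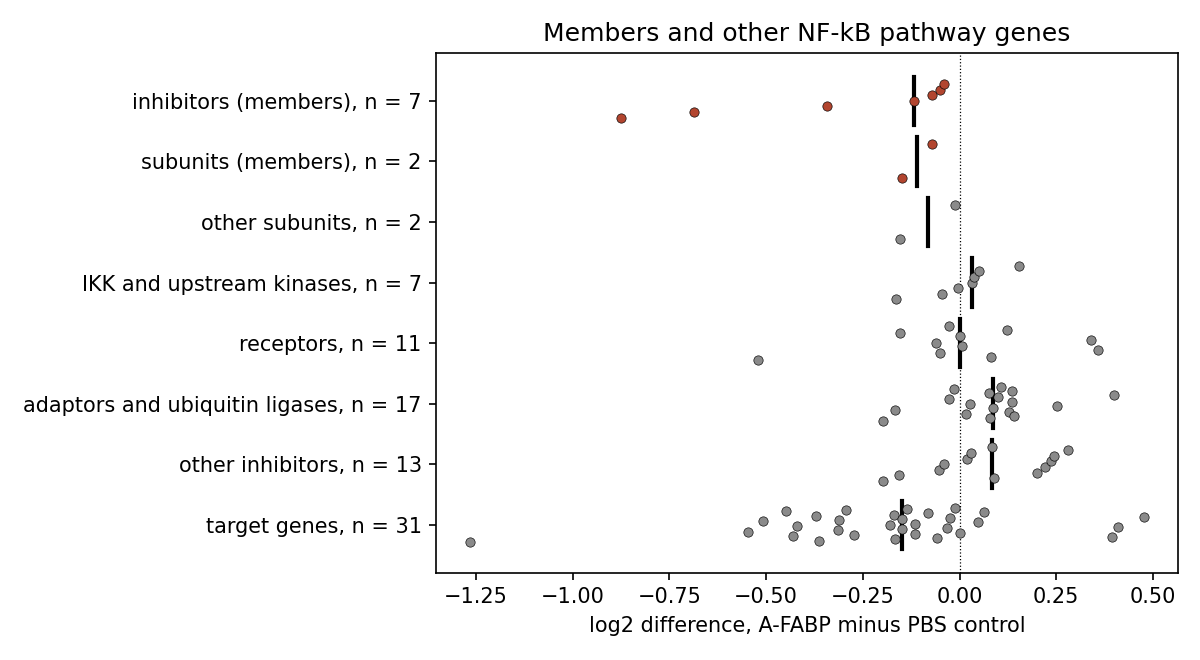
Log2 difference (horizontal axis, A-FABP minus PBS control) of each gene as a point, by group of pathway genes, with a black bar at the group's median. Target genes have a median of -0.15 and the inhibitors followed here of -0.12, and the medians of the other inhibitors and of the adaptors lie at 0.08 and 0.09. The groups mix genes of different levels, and the medians of all genes by level ran from -0.13 to 0.09.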

How the data were processed

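The data are 4 single-colour expression arrays of EO771 cells, 2 with A-FABP and 2 with PBS, grouped by their titles. The deposited table holds 1 log2 value per probe set and array. The authors' steps, per the submitters' processing notes, included RMA and Partek 6.6. No source used here gives the genome build.

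Of 41345 probe sets, the platform annotation named 1 gene for 23521, several genes for 1814 and none for 16010. The probe set with the highest mean over the arrays stood for a gene. Differences are A-FABP minus PBS, from 1 linear model per probe set with moderated variances (limma 3.58.1, R 4.3.3) across the whole table, two-sided, with Benjamini-Hochberg adjustment at 0.05. SE and 95% intervals come from this fit, which was tested on simulated data. The number of arrays limits the precision. Differences may be compressed at very dim and very bright probe sets, which was not measured here.

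The members and lists were chosen with earlier results of these data known. All members are described, and of each further list up to 3 genes with the largest absolute difference, plus Rela and Rel. Ikbkb, Tlr2, Nfkbid, Irak3 and the marker genes named in the text were picked outside that rule after their values were seen. So were Ptgs2, Il6, Mmp13, Mmp9 and Bcl2a1a. Promoter sequences are from RefSeq (GRCm38.p6). Planned protein sequence comparisons were not made. Alternatives were other scalings, a filter on low values, other variance priors, a mean over probe sets, a replicate block and leaving out each array.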

Additional observations from a re-analysis of the deposited data

How the results depend on the processing

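The precision is limited by 2 arrays per group, and differences no larger than the gaps between replicates were not resolved. Over the 11 alternatives, 0 probe sets were called at a limma adjusted p under 0.05 in each. Tnfaip3 stayed between -1.04 and -0.71, Nfkbia between -0.76 and -0.61, Nfkbiz between -0.40 and -0.28 and Relb between -0.23 and -0.08. Nfkbib ranged from -0.18 to -0.050 and Nfkbie from -0.11 to -0.0056, the last after median centring. Of the 9 members 6 lay below 0 in every alternative. Of the other 3, Tnip1 lay at 0.014 and Bcl3 at 0.024 after median centring, which shifted the median of all genes to 0.05. Leaving out 1 array gave Tnip1 from -0.15 to 0.048, Bcl3 from -0.20 to 0.12 and Nfkb2 from -0.15 to 0.0073, and the sign turned without PBS control replicate 2 for Tnip1 and Nfkb2 and without PBS control replicate 1 for Bcl3.

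After median centring the inhibitor median was -0.052 and the subunit median -0.045, and 3 inhibitors kept both A-FABP arrays below both controls. The subunit median was -0.17 after cyclic loess and -0.18 after repeated quantile normalization, where the inhibitor median minus the subunit median was 0.0028 and 0.0087. With 1 array left out, the inhibitor median ranged from -0.20 to -0.073, the subunit median from -0.15 to -0.072, and the difference between them from -0.13 to 0.025, above 0 without A-FABP replicate 1. The lone array is then assumed to vary like the other group. The causes were not tested. The mean over probe sets changed no member, as each has 1.

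The titles give both groups the replicate numbers 1 and 2, with no statement that a number marks a shared batch. Deviations of same-numbered arrays correlated at -0.00889 over all probe sets. A batch that touches part of the genes need not show in that value. Whether the numbers pair the arrays was therefore not decided. A fit with the replicate block called 0 probe sets, with member adjusted p-values of 0.377 to 0.878, and left the differences as they were.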
